A study of Homo sapiens with 2 samples.

Results

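Platelet granules were described here through 10 genes, called the granule genes below. They encode granule cargo, the granule membrane receptor P-selectin and proteins that build or release granules. F13A1 is the exception, a clot enzyme found in the cytosol. The genes are VWF, THBS1, MMRN1, SRGN, TGFB1, F13A1, SELP, NBEAL2, RAB27B and PLEK, chosen by name, and they were 10 of the 19775 genes with a probe set of their own on the array. All 24 probe sets annotated to one of them alone were used. The cells were MEG-01, an established megakaryoblastic line from the blast crisis of chronic myeloid leukemia (CML) that carries BCR-ABL. They were transduced with a lentivirus that expressed GAS2DN, a truncated dominant negative form of GAS2, or with the control virus (Venus), whose fluorescent protein both viruses carried. The transgene was driven by the spleen focus forming virus promoter, and fluorescent cells were purified by FACS before RNA was extracted. RNA of 3 extracts per condition was pooled in equal amounts, and each pool was hybridised to 1 Affymetrix Human U133 Plus 2.0 array. There is thus 1 array per condition, without replicate, test or p-value, and each ratio compares 2 pools of 1 cell line.

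Megakaryocytes pack 2 main kinds of secretory granules and hand them to the platelets they release. The alpha-granules hold adhesive proteins, growth factors and clotting factors, with P-selectin in their membrane, while the dense granules hold nucleotides, serotonin and calcium. On activation, protein kinase C signals and a Rab27-dependent docking and fusion machinery bring granules to the surface, where cargo is released and P-selectin is displayed.

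Signals are those of the MAS5 algorithm, which condenses the probes of a probe set to 1 value in arbitrary units. The median signal was 69.1 on the GAS2DN array and 55.6 on the Venus array, and a probe set was called eligible when the brighter of its 2 signals reached the median of its own array. Each gene was represented by its brightest probe set, leaving out those ending in _x_at where it had another. This is called its main probe set, and a gene was called measured when that probe set was eligible, as for 13086 genes. A signal reflects how well its probes bind as well as the amount of RNA, so values are compared between arrays and not between probe sets. Of the megakaryocyte markers, 9 of the 11 with a probe set were measured, each at or above the median on both arrays. Of these 9, 7 had a log2 ratio above 0, with a median of 0.35. The main signals of all 11 summed to 25056 in GAS2DN and 24809 in Venus cells, with FLI1 at 6806 in GAS2DN and 10408 in Venus cells among them. PF4 and PPBP, chemokines of the alpha-granule, lay below the median on both arrays. Of 10 endothelial markers, also relevant because VWF, SELP and MMRN1 are endothelial genes too, 7 were measured. The main signals of all 10 summed to 9795 in GAS2DN and 8521 in Venus cells, with PECAM1 at 7025 in GAS2DN and 6330 in Venus cells among them. PECAM1, ESAM, TIE1, ERG, TEK and KDR were at or above the median on both arrays. The endothelial cadherin CDH5, with 18.7 in GAS2DN and 1.85 in Venus cells, CLDN5 and EMCN were below it on both. Of the monocyte and macrophage markers 3 of 7 were measured, and all 7 summed to 471 in GAS2DN and 467 in Venus cells. Of the fibroblast markers 1 of 8 was measured, COL1A2, and the main signals of all 8 summed to 297 in GAS2DN and 252 in Venus cells. COL1A1 and DCN also had eligible probe sets ending in _x_at, which do not enter these values. That of COL1A1 had 402 in GAS2DN and 284 in Venus cells, and the brighter of DCN 131 in GAS2DN and 58.6 in Venus cells. The part of other cell types in the results was not tested. GAS2 itself had 34.7 in GAS2DN and 24.3 in Venus cells in its only probe set, whose place relative to the truncation is not given in the files, so it does not check the labels.

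The granule genes differed between GAS2DN and Venus cells about as often as other genes of the array. Of the 24 probe sets 15 were eligible, and 11 of these (73.3%) were within 1.5-fold of equal signals, against 72.6% of all eligible single-gene probe sets. The 4 beyond 1.5-fold were the main probe set of NBEAL2, higher in GAS2DN cells with a log2 ratio of 0.62, that of MMRN1, lower with a log2 ratio of -0.77, and 2 of THBS1 with opposite signs. SELP lay just inside, higher in GAS2DN cells with a ratio of 1.48. No eligible probe set was over 3-fold higher, against a background of 4.96% of 24840 eligible single-gene probe sets, and 1, of THBS1, was over 3-fold lower, against a background of 3.36%. Of all eligible probe sets over 3-fold 59.6% were higher, and 49.5% after loess or quantile normalization. By the main probe set 6 of the 8 measured genes were above 0, with a median log2 ratio of 0.19, while over all measured genes 56.2% were above 0 and the median was 0.06. The 6 include THBS1 and NBEAL2, each with another eligible probe set below 0. The count was 5 of 7 when both signals had to reach the median, which leaves out THBS1, against 56.28% of all genes under that filter. By the second-brightest eligible probe set it was 4 of 6, against 52.75% of all genes. None of the 8 was over 2-fold in either direction, against 7.91% of all measured genes over 2-fold higher and 4.45% over 2-fold lower. Over 3-fold the background was 4.54% higher and 2.33% lower. VWF and F13A1, with every signal under the array median, are not among the 8. Among the 12 probe sets at or above the median on both arrays the log2 ratios ran between -0.77 and 0.62, and 9 were above 0. Several of the 12 read the same gene, and the share above 0 over all such probe sets was not counted. In bulk RNA, fewer cells expressing a gene and less of its RNA per cell cannot be told apart.

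**Figure D1:**
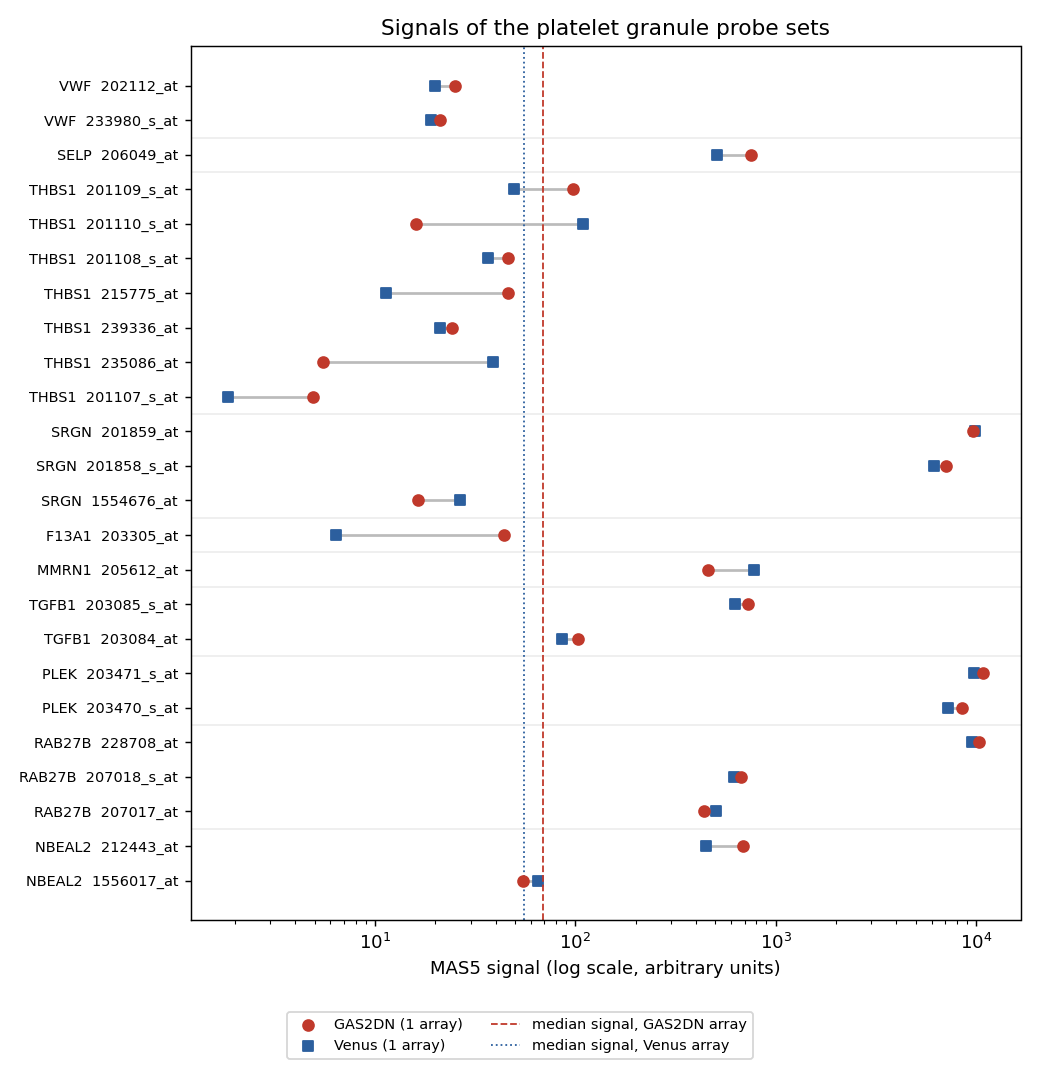
MAS5 signal (log scale, arbitrary units) of each of the 24 probe sets in GAS2DN cells (red circles) and in Venus cells (blue squares), 1 array each, with the median signal of each array as a dashed and a dotted line. Paired symbols nearly coincide for PLEK, RAB27B and the 2 bright probe sets of SRGN far above the medians, while most THBS1 probe sets, VWF and F13A1 lie below them.

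As a yardstick, the log2 ratios of different probe sets of 1 gene were compared within 10 bins of mean signal that hold equal numbers of probe sets, bin 10 being the brightest. The SD between such probe sets was 0.25 in bin 10, 0.34 in bin 9, 0.41 in bin 8, 0.85 in bin 6 and 2.33 in bin 3. It covers differences between probe sets on the same 2 arrays and not the spread between cultures. Of the 15 eligible granule probe sets 10 (66.7%) had a log2 ratio within the SD of their bin, against 65.0% of all eligible single-gene probe sets. The 5 beyond it belonged to SELP, NBEAL2 and MMRN1, with 1 each, and to THBS1, with 2 of opposite sign.

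**Figure D2:**
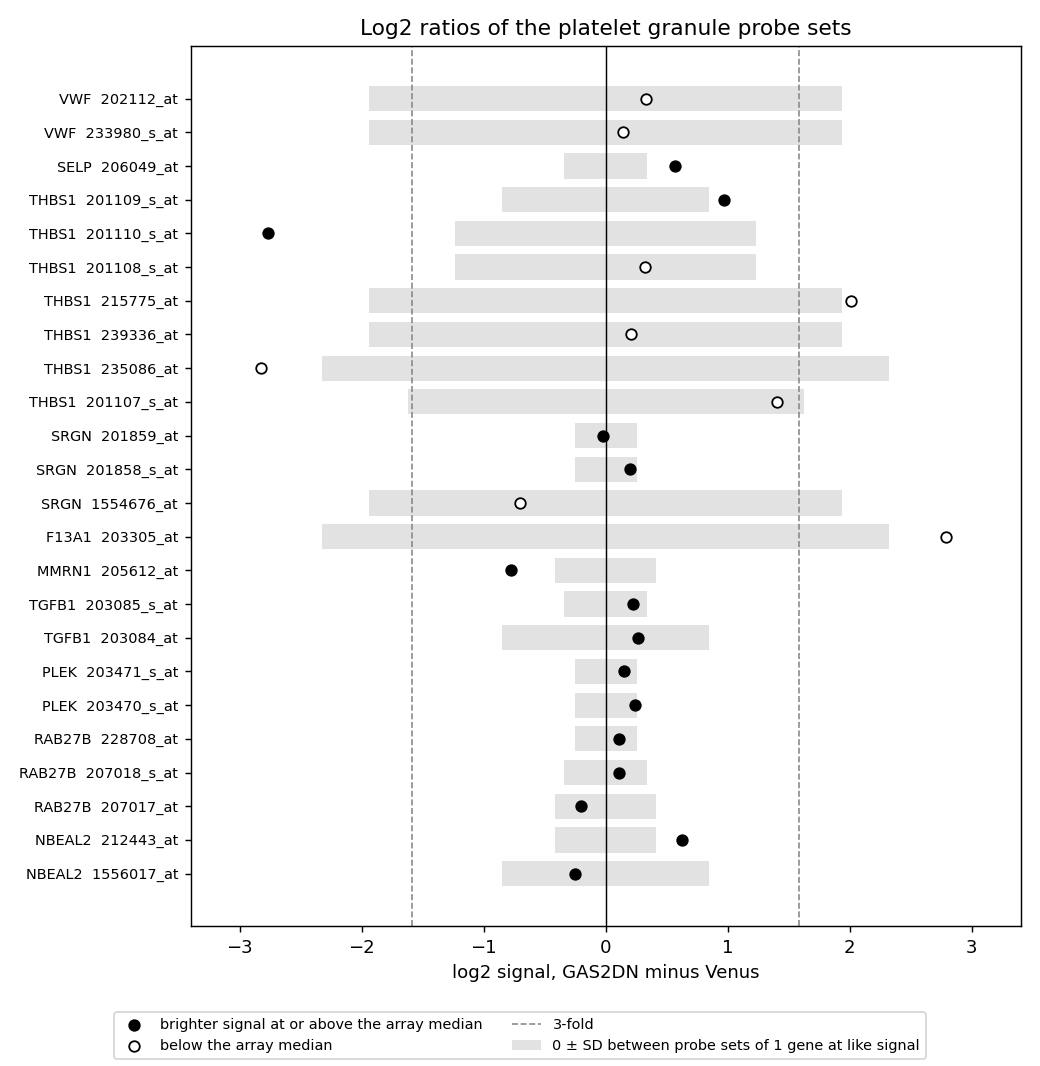
Log2 of the signal in GAS2DN over that in Venus cells for the 24 probe sets (filled circles, eligible; open circles, not eligible), with grey bars for 0 plus or minus the SD between probe sets of 1 gene in the same bin of signal and dashed lines at 3-fold. SELP, MMRN1 and the main probe set of NBEAL2 lie outside narrow bars, and the THBS1 probe sets spread between -2.83 and 2.01.

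Promoter windows from RefSeq (build GRCh38.p14, 250 bases before to 50 after a transcription start) were searched for short motifs of factors known to drive megakaryocyte genes. The table holds 11 windows of 8 of the genes. Both strands were searched for GATAA, a core of GATA factor sites, for GGAAG, a core of ETS factor sites, and for TGANTCA, an AP-1 and NF-E2 type core. GATAA was found in 4 of the 11 windows, one each of SELP, F13A1, MMRN1 and RAB27B, against 22.7% of all 35116 windows. GGAAG was found in 9 of the 11 windows, against 71.9% of all windows, and TGANTCA in 1 window of RAB27B, against 7.71%. The 9 windows with GGAAG cover all 8 genes, some of which have several windows, and no background share by gene was worked out. The 4 windows with GATAA are printed because they hold genes that differ in the arrays, with SELP higher, MMRN1 lower, RAB27B near equal and F13A1 dim. They are written 5′ to 3′ on the strand of the gene, and capitals mark the GATA and ETS cores named above on either strand, none of which overlap each other. The windows lie at chr1:169630075-169630374 on the minus strand for SELP, at chr4:89894604-89894903 on the plus strand for MMRN1, at chr18:54717607-54717906 on the plus strand for RAB27B and at chr6:6320613-6320912 on the minus strand for F13A1.
SELP: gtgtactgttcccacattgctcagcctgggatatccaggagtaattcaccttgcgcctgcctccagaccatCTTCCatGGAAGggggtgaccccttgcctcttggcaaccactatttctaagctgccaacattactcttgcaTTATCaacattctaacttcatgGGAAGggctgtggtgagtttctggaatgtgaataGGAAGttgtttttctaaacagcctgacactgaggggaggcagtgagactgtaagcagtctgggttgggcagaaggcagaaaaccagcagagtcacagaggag
MMRN1: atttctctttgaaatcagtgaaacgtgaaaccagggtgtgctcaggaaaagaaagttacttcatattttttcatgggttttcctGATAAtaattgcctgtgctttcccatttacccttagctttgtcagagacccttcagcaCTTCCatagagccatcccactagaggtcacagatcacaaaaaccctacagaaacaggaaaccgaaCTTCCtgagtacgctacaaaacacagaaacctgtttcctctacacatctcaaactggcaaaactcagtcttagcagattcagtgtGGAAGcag
RAB27B: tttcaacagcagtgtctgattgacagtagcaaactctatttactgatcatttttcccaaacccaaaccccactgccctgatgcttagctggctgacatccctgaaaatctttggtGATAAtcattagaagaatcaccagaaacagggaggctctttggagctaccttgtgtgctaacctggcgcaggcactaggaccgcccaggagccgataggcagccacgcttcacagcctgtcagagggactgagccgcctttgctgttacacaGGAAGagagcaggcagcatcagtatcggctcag
F13A1: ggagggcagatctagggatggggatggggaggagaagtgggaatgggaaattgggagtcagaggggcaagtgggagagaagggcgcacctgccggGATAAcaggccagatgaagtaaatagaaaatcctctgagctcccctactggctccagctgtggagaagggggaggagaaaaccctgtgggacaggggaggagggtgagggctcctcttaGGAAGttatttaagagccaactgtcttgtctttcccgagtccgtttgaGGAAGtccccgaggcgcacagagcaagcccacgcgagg
Counted from the start site, the GATAA match begins 108 bases upstream in SELP, 166 in MMRN1, 135 in RAB27B and 155 in F13A1. SELP has 4 GGAAG matches in this window, MMRN1 3, F13A1 2 and RAB27B 1. The windows of NBEAL2, which was higher in GAS2DN cells like SELP, hold no GATAA. A match is a run of letters and not a shown binding site. Signals of GATA1 itself were 1516 in GAS2DN and 1617 in Venus cells in one probe set and 1180 in GAS2DN and 1122 in Venus cells in the other.

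Among the adhesive cargo proteins, multimerin 1 (MMRN1) had a bright signal that was lower in GAS2DN cells. MMRN1 is a large polymer of the alpha-granule that binds coagulation factor V. Its only probe set, 205612_at, had a signal of 459 in GAS2DN cells and 784 in Venus cells, a ratio of 0.585. The log2 ratio of -0.77 is beyond the SD of 0.41 between probe sets at this signal. Of all eligible single-gene probe sets 65.0% were within the SD of their bin. In the bin of MMRN1 0.366% of probe sets were over 3-fold in either direction, a size that MMRN1 did not reach. With a single probe set there is no second reading of MMRN1 on these arrays. MMRN2, its endothelial relative, had signals of 135 in GAS2DN and 75.5 in Venus cells, with a log2 ratio of 0.84, within the SD of 0.85 of its bin. Its other probe sets had log2 ratios of 0.53 and, in one below the median on both arrays, 1.44.

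VWF encodes von Willebrand factor, the multimeric protein that tethers platelets to injured vessels through the GPIb complex. Its probe set 202112_at had signals of 25.1 in GAS2DN cells and 20.0 in Venus cells, and 233980_s_at had 21.2 in GAS2DN and 19.1 in Venus cells. Both probe sets were thus dim on both arrays. The log2 ratios of 0.33 and 0.15 are small beside the SD of 1.94 at such signals, and that of 202112_at was -0.03 after loess and -0.08 after quantile normalization. The direction of VWF is therefore not settled by these arrays.

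THBS1 encodes thrombospondin 1, an alpha-granule protein that binds CD36 and CD47 and activates latent TGF-beta, and it was read by 7 probe sets that disagreed with each other. The main probe set, 201109_s_at, had 97.5 in GAS2DN cells and 49.7 in Venus cells, a ratio of 1.96. In 201110_s_at, annotated to a RefSeq transcript of the gene, the signals were 16.0 in GAS2DN and 109 in Venus cells, a ratio of 0.147. These are the only eligible probe sets of THBS1, and they point in opposite directions. Each has 1 of its signals below the median of its array. With low signals raised to the median the log2 ratio of 201110_s_at was -0.66 in place of -2.76, and that of 201109_s_at was 0.81 in place of 0.97.
Among the other 5 probe sets, all below the median on both arrays, 235086_at had 5.49 in GAS2DN and 38.9 in Venus cells, a ratio of 0.141. The probe set 215775_at had 45.9 in GAS2DN and 11.4 in Venus cells, a ratio of 4.04, and 201107_s_at had 4.91 in GAS2DN and 1.86 in Venus cells. The remaining pair, 201108_s_at and 239336_at, had log2 ratios of 0.32 and 0.21. In all 5 of the 7 were higher in GAS2DN cells, and the log2 ratios covered a range of 4.84. At signals this low large ratios were common, since 21.0% of all probe sets in the bin of 201110_s_at were over 3-fold in either direction and 62.5% in that of 235086_at. Between the 2 eligible probe sets the range was 3.74, and 246 of 6422 genes with at least 2 eligible probe sets, or 3.83%, had a range as wide. A direction for THBS1 cannot be given from these values.

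**Figure D3:**
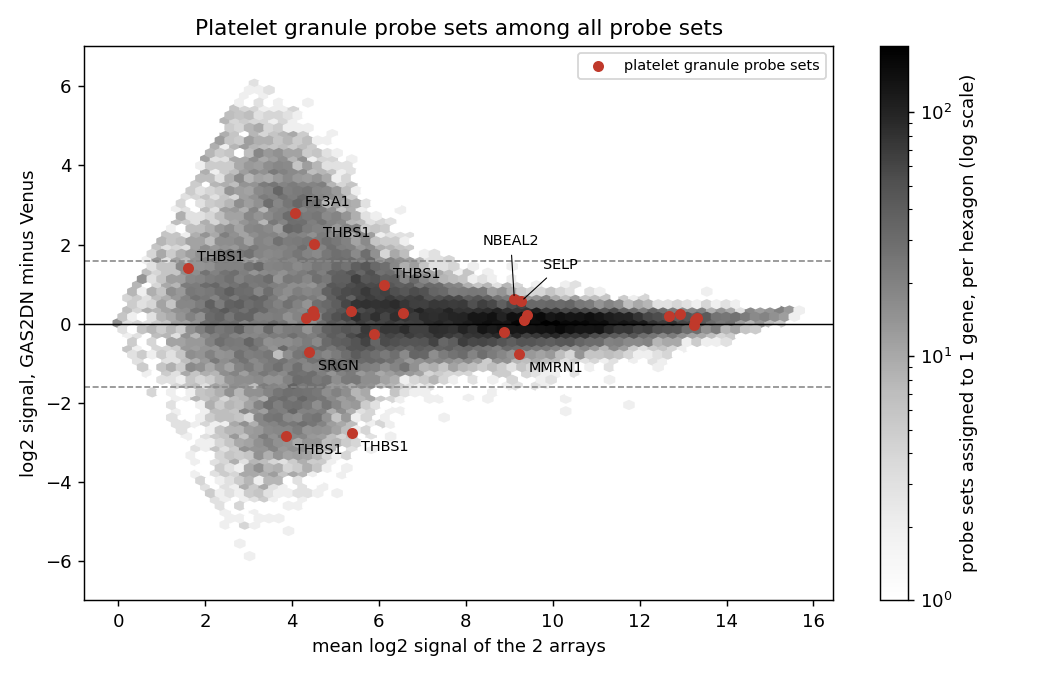
Log2 of the signal in GAS2DN over that in Venus cells against the mean log2 signal of the 2 arrays for all probe sets assigned to 1 gene (grey hexagons, darker where more lie) and for the 24 platelet granule probe sets (red), with dashed lines at 3-fold. The THBS1 and F13A1 points with large ratios lie in the wide cloud of low signals, and SELP, NBEAL2 and MMRN1 lie near the edge of the narrow cloud at higher signals.

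Serglycin (SRGN), the core protein whose glycosaminoglycan chains hold basic cargo such as PF4 in the granule, gave strong signals that hardly differed. In 201859_at the signal was 9696 in GAS2DN cells and 9841 in Venus cells, and in 201858_s_at it was 7059 in GAS2DN and 6138 in Venus cells. The log2 ratios of -0.02 and 0.20 lie within the SD of 0.25 of the brightest bin. The last probe set, 1554676_at, was dim with 16.4 in GAS2DN and 26.7 in Venus cells. PF4 itself had 25.9 in GAS2DN and 40.8 in Venus cells, both below the array median.

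TGFB1 encodes transforming growth factor beta 1, stored in the alpha-granule in latent form. Its main probe set, 203085_s_at, had 731 in GAS2DN cells and 625 in Venus cells, and the other, 203084_at, had 103 in GAS2DN and 85.8 in Venus cells. Both were slightly higher in GAS2DN cells, with ratios of 1.17 and 1.20, and both log2 ratios lie within the SD of their bins, 0.34 and 0.85. The range between them of 0.04 was narrow, as 97.0% of the genes with at least 2 eligible probe sets had one at least as wide.

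F13A1 encodes the catalytic A subunit of factor XIII, the transglutaminase that crosslinks fibrin and is found in the cytosol of platelets and megakaryocytes. Its only probe set, 203305_at, had 44.3 in GAS2DN cells and 6.39 in Venus cells, a ratio of 6.93. This is the largest ratio above 1 among the 24 probe sets, but both signals are below their array medians. The log2 ratio of 2.79 is beyond the SD of 2.33 between probe sets at this signal. Of all single-gene probe sets that were not eligible 24.2% were over 3-fold higher and 14% over 3-fold lower, so ratios over 3-fold are not unusual there. How many reached the ratio of F13A1 was not counted. With low signals raised to the array median both F13A1 signals were replaced by the medians. The resulting ratio of 1.24, a log2 ratio of 0.31 in place of 2.79, is that of the array medians and holds no reading of F13A1. With the median added the log2 ratio was 0.87. F13A1 is also expressed in monocytes. Of the 7 monocyte and macrophage markers CD14, CD163, FCN1 and MRC1 were below the median on both arrays. The measured ones were CSF1R with 91.7 in GAS2DN and 67.6 in Venus cells, ITGAM with 79.2 in GAS2DN and 49.5 in Venus cells, and LYZ with 259 in GAS2DN and 275 in Venus cells. Their part in the F13A1 signal was not tested.

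P-selectin (SELP), the leukocyte receptor of the alpha-granule membrane, was read by 206049_at alone. Its signal was 752 in GAS2DN cells and 508 in Venus cells, a ratio of 1.48. The log2 ratio of 0.56 is beyond the SD of 0.34 of its bin, while 65.0% of all eligible single-gene probe sets were within that of theirs. In the bin of SELP 0.293% of probe sets were over 3-fold in either direction, a size that SELP did not reach. The log2 ratio of SELP lay between 0.52 and 0.58 under all 10 alternatives that gave it a value. With a single probe set, a change of filter could not move it. The other alternatives only rescaled or offset the same pair of signals, so they give no second reading of SELP. SELPLG, the counter-receptor PSGL-1 on leukocytes, had 1020 in GAS2DN and 849 in Venus cells, with a log2 ratio of 0.26, and 0.84 in its other probe set.

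NBEAL2, the BEACH-domain protein needed to form alpha-granules and mutated in gray platelet syndrome, had a main signal of 688 in GAS2DN cells and 447 in Venus cells (212443_at). The ratio was 1.54, and the log2 ratio of 0.62 is beyond the SD of 0.41 of its bin. The second probe set, 1556017_at, had 54.6 in GAS2DN and 65.0 in Venus cells, a ratio of 0.841. The higher signal thus rests on the brighter of 2 probe sets, and the dimmer one, with a GAS2DN signal below the median, did not share it. Its relatives NBEA and NBEAL1 had log2 ratios of -0.18 and -0.10.

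RAB27B, the small GTPase that docks granules at the plasma membrane, was read by 3 probe sets, all above the median. The main one, 228708_at, had 10324 in GAS2DN cells and 9584 in Venus cells, 207018_s_at had 669 in GAS2DN and 621 in Venus cells, and 207017_at had 441 in GAS2DN and 507 in Venus cells. The log2 ratios were 0.11, 0.11 and -0.20, each within the SD of its bin. RAB27A, which shares the role, had signals of 182 in GAS2DN and 275 in Venus cells in its main probe set, a log2 ratio of -0.60, with -0.23, -1.30, -0.72 and 0.69 in 4 others. The lower main signal was thus shared by 3 of its other probe sets.

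Pleckstrin (PLEK), the main substrate of protein kinase C in platelets, gave strong signals in both of its probe sets. In 203471_s_at they were 10809 in GAS2DN cells and 9758 in Venus cells, and in 203470_s_at 8529 in GAS2DN and 7231 in Venus cells. The ratios of 1.11 and 1.18 are on the same side, and the log2 ratios of 0.15 and 0.24 lie within the SD of 0.25 of the brightest bin. PLEK and TGFB1 were the 2 of 6 genes with at least 2 eligible probe sets in which all of these had the same direction, and 39.4% of all such genes did.

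The genes around them were described with lists of alpha-granule cargo, granule biogenesis, docking and fusion, signalling and receptors. Of 27 alpha-granule cargo genes 14 were measured, with 6 above 0 and a median log2 ratio of -0.05, below that of all measured genes, though the median was above 0 under 6 of 11 alternatives. The growth factor EGF was the only one over 2-fold, with signals of 93.5 in GAS2DN and 247 in Venus cells, a ratio of 0.379 in its single probe set. LTBP1, which holds latent TGF-beta, had 8649 in GAS2DN and 8194 in Venus cells in its main probe set, with a log2 ratio of 0.37 in the other, and the protease inhibitor TIMP1 4921 in GAS2DN and 4854 in Venus cells. The fibrinogen chains FGA, FGB and FGG and factor V (F5) were below the median on both arrays. The tissue factor pathway inhibitor TFPI had log2 ratios of -0.60, -0.97, 0.13, 0.28 and 0.19 in 5 probe sets. LTBP1, TIMP1, TFPI, F5 and the fibrinogen genes were picked after their values were seen, as were MMRN2, SELPLG, NBEA, NBEAL1, RAB27A and GATA1 above.

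Of 32 genes of granule biogenesis and membranes 31 were measured, 20 of them above 0, with a median log2 ratio of 0.06, and none was over 2-fold. The highest was SLC17A9, which loads nucleotides into dense granules, with 397 in GAS2DN and 230 in Venus cells, a log2 ratio of 0.79. Its other 2 probe sets had 0.75 and -0.36. The lowest was SLC35D3, also needed for dense granules in the mouse, with 41.4 in GAS2DN and 82.1 in Venus cells, of which the first is below the median. CD63, the tetraspanin of dense granules and lysosomes, had 11773 in GAS2DN and 10054 in Venus cells, and VPS33B, which acts in alpha-granule formation, 1047 in GAS2DN and 1376 in Venus cells, with log2 ratios of 0.23 and -0.39, and VPS33B had 0.16 in its other probe set. CD63 and VPS33B were picked after their values were seen.

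Of 27 docking and fusion genes 26 were measured, 14 above 0, with a median log2 ratio of 0.01 that was below 0 under 5 of 11 alternatives. SYTL4, a Rab27 effector also called granuphilin, was over 2-fold, with 82.7 in GAS2DN and 6.10 in Venus cells, but the Venus signal is below the median and its other 2 probe sets, both dim, had log2 ratios of -1.04 and 2.16. UNC13D, the Rab27 effector Munc13-4, had 319 in GAS2DN and 462 in Venus cells in its main probe set, with log2 ratios of 4.11 in a probe set whose Venus signal was 7.20 and of -2.03 in a dim one. STXBP3, which binds syntaxin 4, had 906 in GAS2DN and 1680 in Venus cells, a ratio of 0.539, with a log2 ratio of -0.29 in a dim probe set. The SNARE proteins SNAP23 and VAMP8 had main log2 ratios of 0.02 and 0.31. UNC13D, STXBP3, SNAP23 and VAMP8 were picked after their values were seen.

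Of 13 genes that signal upstream of secretion, all measured, 7 were above 0, with a median of 0.14. The kinase PRKCA was the only one over 2-fold, with 79.4 in GAS2DN and 28.8 in Venus cells, the second below the median. PRKCB and PRKCQ, other protein kinase C genes with brighter signals, had main log2 ratios of 0.28 and 0.30, with -0.00 in the other probe set of PRKCQ. The other eligible probe sets of PRKCB had 0.78, 0.59, -0.25 and 3.39, the last with a Venus signal of 8.05, and a dim one had -2.01. Of 17 receptors, partners and processing enzymes of the cargo 15 were measured, 13 of them above 0, with a median of 0.26. Over all measured genes 56.2% were above 0 and the median was 0.06. Under 11 alternatives the median of the list lay between 0.16 and 0.32. The list shares GP1BA, GP9, ITGA2B and ITGB3 with the megakaryocyte markers, so the 2 are not separate observations. FURIN, the protease that cleaves the precursors of VWF and TGF-beta, was over 2-fold, with 498 in GAS2DN and 243 in Venus cells, a ratio of 2.05 in its only probe set. Subunits of the platelet receptor complex for VWF had log2 ratios of 0.10 for GP1BA, 0.22 for GP9 and 0.49 for GP5, with 0.84 in its other probe set. LRRC32 (GARP), which holds latent TGF-beta on platelets, had 695 in GAS2DN and 474 in Venus cells, a log2 ratio of 0.55. PRKCB, PRKCQ, LRRC32 and the glycoproteins were picked after their values were seen.

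**Figure D4:**
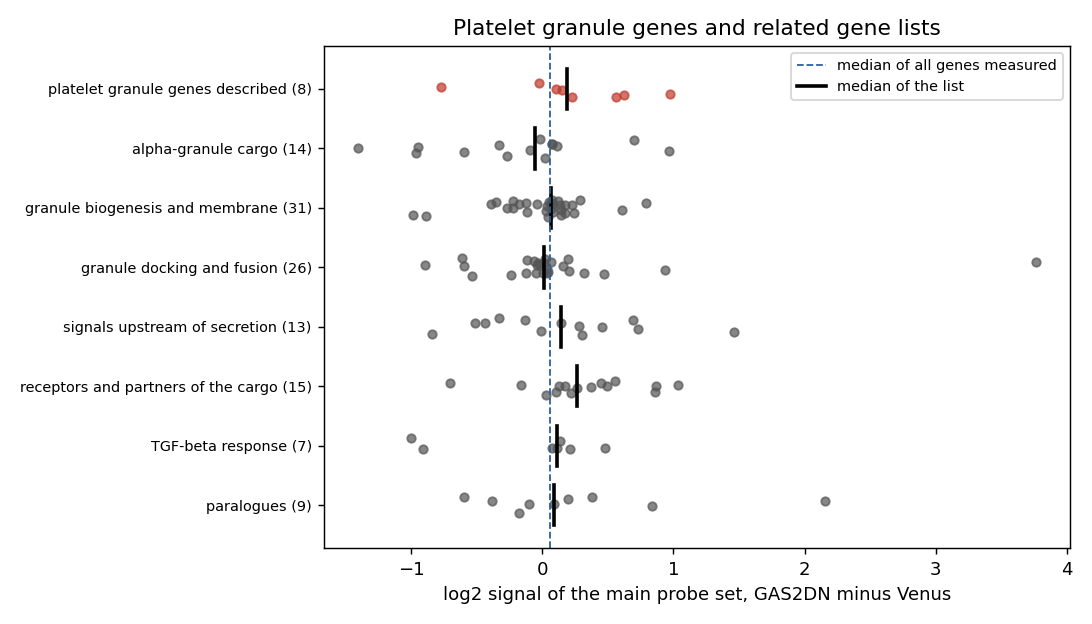
Log2 of the signal in GAS2DN over that in Venus cells by main probe set, 1 point per measured gene, for the platelet granule genes (red) and 7 related lists (grey), with how many genes were measured in brackets, the median of each list as a black bar and the median of all measured genes as a dashed line. The medians lie between -0.05 and 0.26, and single genes lie further out in every list.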

How the data were processed

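MEG-01 cells transduced with GAS2DN or Venus were measured with 1 Affymetrix Human U133 Plus 2.0 array per condition, on RNA pooled from 3 extracts. The authors deposited log2 values of MAS5 signals (version not given in the sources used here), with a 2% trimmed mean signal of 500.1 on both arrays and no detection calls in the table. MAS5 corrects each probe with its mismatch partner, and ratios of dim probe sets spread widely in these values. Of 54675 probe sets 62 were controls, and 41091 of the rest were assigned to 1 gene by the platform table, with symbols updated through the gene identifier for 41037.

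Ratios were GAS2DN over Venus signals. The main probe set had the highest mean log2 signal, leaving out those ending in _x_at where a gene had another. A call was a ratio over 3 or under its inverse. The genes and lists were chosen with earlier results of these data known. Named were the 10 genes and, per list, up to 2 genes each way over 2-fold, or else the highest and the lowest. With 1 array per condition no test was made, and precision is limited by the number of arrays. Alternatives changed the filter, the scaling, the treatment of low signals and the way from probe sets to genes. The steps were tested on simulated data. Python 3.11.15, numpy 2.4.6, pandas 2.3.3, statsmodels 0.14.6 and matplotlib 3.10.9 were used.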

Additional observations from a re-analysis of the deposited data

How the results depend on the processing

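The median log2 ratio of the granule genes, 0.19, lay between 0.14 and 0.28 under 11 alternatives. The count of granule probe sets over 3-fold depended on the filter. Without a filter 2 of the 24 were higher and 2 lower. Of all 41091 single-gene probe sets 5169 were then higher and 3116 lower. The count of lower granule probe sets was 0 when both arrays had to reach the median or the brighter had to reach percentile 75. It was also 0 with low signals raised to the median or the median added, and when _s_at and _x_at probe sets were left out. The median of alpha-granule cargo was 0.24 and that of biogenesis genes 0.16 by the second-brightest probe set, that of upstream signalling 0.33 by the median over probe sets, and that of the TGF-beta response list -0.42 without _s_at and _x_at probe sets. The cause was not tested.

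Of 100 values of single granule probe sets or genes under an alternative 93 moved by less than the SD between probe sets at their signal, and 93 kept their sign. Many of them could not move, because a change of filter leaves the ratio of a probe set as it was. At low signals the SD is wide, so F13A1 at 0.87 with the median added still counted as within it. NBEAL2 had 0.19 by the median of its probe sets and -0.25 by the second-brightest, and THBS1 -0.90 and -2.76. F13A1 had 0.31 with low signals raised to the median, in place of 2.79, but that value is only the log2 ratio of the array medians. With loess or quantile normalization 49.5% of all eligible single-gene probe sets over 3-fold were higher, in place of 59.6%. No paired analysis was possible because each condition has 1 array. Signals below the array median limit what can be read for VWF, F13A1 and THBS1, and THBS1 also by the disagreement of its eligible probe sets.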

Other observations

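Genes that respond to TGF-beta were described because TGFB1 is granule cargo. Of 11 genes 7 were measured, 5 of them above 0, with a median log2 ratio of 0.11. ID1, a helix-loop-helix inhibitor of differentiation, was the highest, with 13130 in GAS2DN and 9415 in Venus cells, and the AP-1 subunit JUNB was the lowest, with 350 in GAS2DN and 698 in Venus cells, a ratio of 0.501 in its only probe set. SMAD7, the inhibitory SMAD, had 108 in GAS2DN and 202 in Venus cells, and was picked after its value was seen.

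Of 14 relatives of the granule genes 9 were measured, 5 above 0, with a median of 0.09 that was below 0 after loess and quantile normalization. THBS4, another thrombospondin, was over 2-fold, with 133 in GAS2DN and 29.7 in Venus cells, the second below the median. Among the marker lists, ITGB3 of the megakaryocyte list had log2 ratios of 0.87, 0.06 and 1.77 in its eligible probe sets, and the transcription factor FLI1 had -0.61 in its main probe set and values between -0.68 and 0.00 in its other eligible ones. Of the endothelial list ROBO4 had 15.8 in GAS2DN and 92.6 in Venus cells, with the first below the median, and of the fibroblast list COL1A2 had 111 in GAS2DN and 41.0 in Venus cells, with the second below the median. In the monocyte and macrophage list ITGAM had a log2 ratio of 0.68 and LYZ -0.09, with 0.42 in its other probe set.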
